A study of Mus musculus with 8 samples.

Results

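In 908 genes of the mouse brain, cleavage and polyadenylation in an exon upstream of the last was rare, and within the last exon no pair of alternative sites was tabulated. These genes were taken from a table of 6147 genes that gives, for each library, the reads ending at a site in the 3′-most exon and the reads ending at a site in an upstream exon. A gene was kept when both sites together held a mean of 20 or more reads per library, when at least 90% of the reads pooled over the wild-type libraries lay in the 3′-most exon, and when the gene was absent from the separate table of 7951 site pairs within last exons. The genes were thus chosen by their read number and their wild-type upstream share. A further 2666 genes met the first 2 conditions but had such a pair listed, 2427 had a wild-type share in the 3′-most exon under 90%, and 146 had too few reads.

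An mRNA ends where the precursor is cleaved and a poly(A) tail is added, and a gene that can end in an upstream exon or intron as well as in its last exon can yield proteins with different carboxy termini. Cleavage depends on an AAUAAA-like signal bound by the cleavage and polyadenylation specificity factor, and on a U-rich or GU-rich element downstream of the cleavage point that is bound by CSTF2 (CstF-64), the RNA-binding subunit of the cleavage stimulation factor. Upstream ends form in competition with splicing and with transcription of the rest of the gene, and in most genes they are a small minority.

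Total brain was taken from 3 wild-type mice and 5 mice carrying Cstf2 D50A, a substitution at residue 50 within the RNA recognition motif of CSTF2, a gene linked to intellectual disability in humans. All animals were untreated littermates at 50 days after birth, on a strain background of C57BL/6NCrl reached by 4 generations of backcrossing and then bred within the colony. The labels give neither the sex of the animals nor a batch, and the replicate numbers used here follow the order of deposit. Libraries were made with QuantSeq REV, which reads from the 3′ end of polyadenylated mRNA. D50A changes the protein and need not change the amount of transcript, so the Cstf2 read count does not check the genotype labels, and Cstf2 itself had a last-exon site pair and is not among the 908 genes. The 8 libraries held between 7075383 and 13145966 reads in the table, of which 14.4% to 17.3% fell in the 908 genes. Whole brain mixes many cell types, so a lower level here cannot be told apart as fewer cells of a type or less RNA per cell.

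The libraries of 1 genotype did not all have the same levels of regional markers. Gabra6, the GABA-A receptor subunit of cerebellar granule cells, had 280, 400 and 300 reads in the wild types, 2, 2, 0 and 0 reads in mutants 1 to 4, and 253 reads in mutant 5, where a count of 0 allows up to 3 reads. Cbln3, another granule cell gene, had 3128, 5137 and 3540 reads in the wild types, 15, 26, 20 and 15 in mutants 1 to 4, and 3042 in mutant 5. These 2 genes were thus at or near 0 in mutants 1 to 4, and in mutant 5 close to the wild types. The lists as a whole differed less. Of the 31 granule cell markers 13 were measured in the upstream-exon table, and their summed level, in CPM (reads scaled to a common library size), was 2016 to 2530 in the wild types, 1786 to 1831 in mutants 1 to 4 and 2439 in mutant 5. The mean log2 level of these 13 genes was 6.62 to 6.75, 5.69 to 5.85 and 6.65 in the same order, a wider gap than in the sums. Of 34 markers of Purkinje cells and other cerebellar cells 13 were measured. They summed to 3008 to 3728, 1852 to 2014 and 3050 CPM in the same order. The 8 measured of 26 striatum markers differed the other way, at 864 to 999 CPM in the wild types, 1051 to 1192 in mutants 1 to 4 and 868 in mutant 5. In the same order, oligodendrocyte markers summed to 9860 to 13379, 8965 to 9734 and 11796.5 CPM. Astrocyte markers summed to 11650 to 13442, 10960 to 11361 and 12424 CPM. In both glial lists the mean log2 levels of wild types and mutants 1 to 4 overlapped. The sums of the remaining lists overlapped too. The part of these differences in the results below was not tested. Results are therefore given for all 8 libraries, without mutant 5, and with mutant 5 as the only mutant. Without mutant 5, genotype cannot be told apart from the levels of these regional markers, the mean GABA neuron marker level and the summed glial markers.

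**Figure D1:**
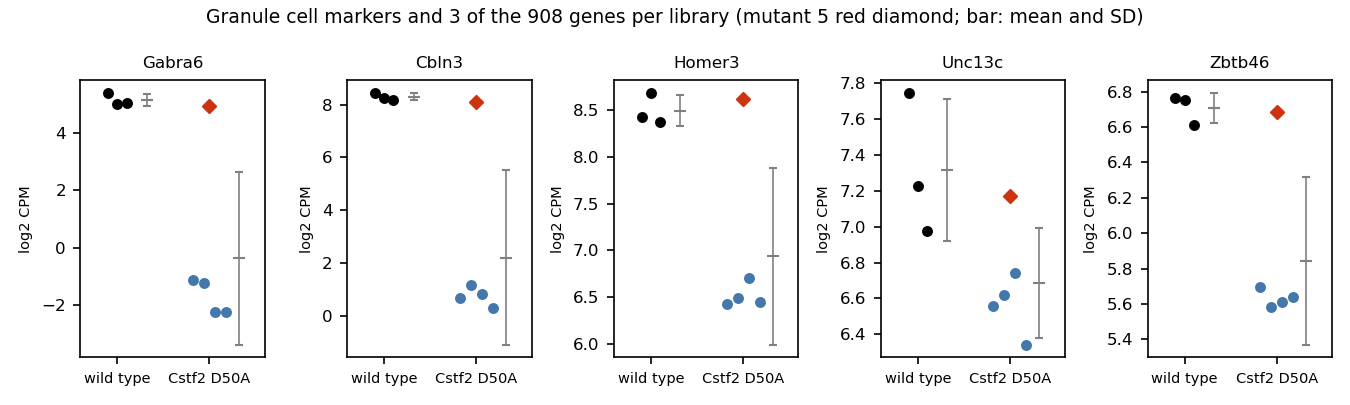
Level (log2 CPM, vertical axes) of 2 granule cell markers, Gabra6 and Cbln3, and of 3 of the 908 genes, Homer3, Unc13c and Zbtb46, in 3 wild-type (black) and 5 Cstf2 D50A libraries (mutants 1 to 4 blue circles, mutant 5 red diamond), with the mean and SD of each genotype beside the points. Mutant 5 lies with the wild types in each of these panels, while mutants 1 to 4 lie lower.

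The 908 genes spanned a wide range of expression, and their upstream ends were few in absolute number. Reads of both sites had a median of 498 per gene and library, with quartiles of 209 and 1308 and a highest value of 62489. Upstream reads had a median of 7.75 per library, with quartiles of 4.25 and 16.8. A mean under 5 upstream reads was found in 288 genes, a mean of 20 or more in 198, and more than 100 in 28. In 779 genes every library held at least 1 upstream read, and in the other 129 at least 1 library held none.

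The upstream share, meaning upstream reads as a percentage of the reads of both sites, had a median of 2.23% over the genes when the wild-type libraries were pooled, with quartiles of 0.840% and 4.87%. Over the mutants pooled the median was 2.19%, with quartiles of 0.827% and 4.70%. Taken library by library, the median over the genes was 2.26%, 2.00% and 2.19% in the wild types and 1.86%, 1.97%, 2.03%, 2.05% and 2.13% in the mutants. The mutants lay below the middle wild type, and the genotypes overlapped. Since the wild-type share chose the genes, these medians are a description.

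Genes with more reads had smaller upstream shares. Across the 908 genes Spearman's rho of mean reads and upstream share was -0.635, a description over points that share 8 libraries and in which reads enter both measures. The file itself sets part of this edge, since no gene of the table had fewer than 16 upstream reads summed over the 8 libraries, that is a mean of 2. The 161 genes with a wild-type upstream share under 0.5% had a median of 2155 reads and 4.88 upstream reads per library, while the 214 genes at 5% or above had 192 reads and 12.9 upstream reads.

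**Figure D2:**
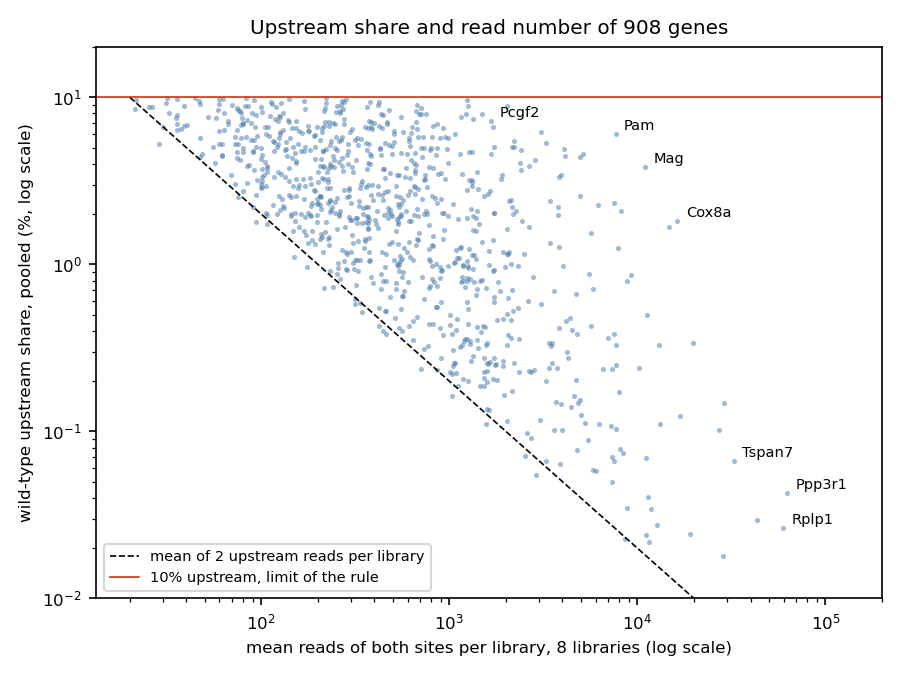
Wild-type upstream share (%, pooled, log axis) against mean reads of both sites per library (log axis) for the 908 genes, each point 1 gene. The dashed line is a mean of 2 upstream reads per library, the lowest in the table, and the red line the 10% limit of the rule; genes such as Rplp1 and Ppp3r1 lie at the lower right with under 0.1% upstream, and Pam and Mag stand out with many upstream reads.

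Among the 8 genes with the most reads the upstream end was a small share of the reads, though not always few in number. Ppp3r1, the regulatory B subunit of calcineurin, had a mean of 62489 reads and 27.6 upstream reads, with upstream shares of 0.0420% ± 0.00352 (SD, n = 3) in the wild types and 0.0461% ± 0.0127 (SD, n = 5) in the mutants. Rplp2, a protein of the ribosomal stalk, had 1 to 7 upstream reads in each library among a mean of 28571 reads. Tspan7, a tetraspanin linked to X-chromosomal intellectual disability, had 0.0710% ± 0.0252 (SD, n = 3) and 0.0419% ± 0.0128 (SD, n = 5). The others were Rplp1, Rps14, Uqcrh, Ywhah and Rpl41, with mean wild-type upstream shares from 0.0262% (Rplp1) to 0.354% (Rpl41). Ribosomal protein genes have many processed copies in the genome, so their counts are uncertain.

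The genes with the most upstream reads were of other kinds. Pam, which amidates neuropeptides, led with a mean of 440 upstream reads, at shares of 6.06%, 5.55% and 6.74% in the wild types and 4.86%, 5.54%, 6.06%, 6.00% and 5.25% in the mutants. Mag, the myelin-associated glycoprotein of oligodendrocytes, had 425 upstream reads, at 4.03%, 3.78% and 3.75% in the wild types and 3.48%, 4.28%, 3.73%, 3.34% and 4.48% in the mutants. For both the genotypes overlapped. Cox8a, a subunit of cytochrome c oxidase, was at 1.87%, 1.82% and 1.78% in the wild types and at 1.60%, 1.43%, 1.10%, 1.24% and 1.34% in the mutants, with no overlap. Mrps6, Ppp6r3, Pcgf2 and Psmc3 were also among the 8 genes with the most upstream reads.

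At the limit of the rule, the last genes inside were Ttc39a, Tom1, Tbxas1 and Txnrd3, with pooled wild-type upstream shares of 9.94%, 9.92%, 9.89% and 9.88% and mutant shares of 12.9%, 9.58%, 8.67% and 13.5%. The first genes outside were Golga4, Dnm3, Gpr75 and Lmnb1, at 10.02%, 10.06%, 10.09% and 10.1% in the wild types and 7.27%, 8.03%, 8.19% and 7.995% in the mutants. The genes on either side of the limit thus had nearly the same wild-type share. The 4 outside all had lower mutant shares, and of the 4 inside 2 had higher ones.

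Comparing Cstf2 D50A with wild type asks whether the mutant moves ends between the upstream and the last exon. No gene of the 908 passed the test of site usage. edgeR's quasi-likelihood test of the interaction between site and genotype, with the library as a block and Benjamini-Hochberg adjustment over all 6001 genes tested, called 0 of the 908 at an adjusted p under 0.05, against a background of 0.0% of all genes tested. DESeq2 called 0 of the 908 and 0.0833% of all tested, and limma-voom 0 and 0.0%. The smallest edgeR adjusted p among the 908 was 0.282, and the smallest DESeq2 adjusted p 0.0749. All the direction statements on usage below are therefore descriptions, also because the wild-type share that chose the genes is part of this contrast.

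Before adjustment, 84 of the 908 genes (9.25%) had an edgeR p under 0.05, against a background of 14.0%. Toward the 3′-most exon these were 45 genes (4.96%, background 10.4%), and toward the upstream exon 39 (4.3%, background 3.63%). DESeq2 gave 60 (6.61%, background 10.7%) and limma-voom 86 (9.47%, background 14.0%). Each of these unadjusted counts for the 908 lay below the background except that toward the upstream exon, which was near it. The median log2 change of 3′-most exon reads over upstream reads, mutant minus wild type, was 0.04 over the 908 genes, with 484 of them above 0 (53.3%, background 62.2%), against 0.17 over all 6001, 0.11 over the 2666 genes with rare upstream ends and a listed pair, and 0.29 over the 2427 genes with more upstream ends. In 104 of the 908 the change was larger than 1 in size, a count not given here over all genes tested. The median standard error of the change was 0.468, against 0.408 over all genes tested. Changes larger than 1 in size were also found in the other classes. The 5th and 95th percentiles were -1.08 and 1.04 over the 908 and -0.93 and 1.12 over the 2666 genes. Over the 2427 genes they were -0.71 and 1.46.

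This split moved with the choice of genes. Taking the share over all 8 libraries in place of the wild types gave 942 genes, 879 of them among the 908, and 69 genes toward the 3′-most exon and 28 toward the upstream exon with an unadjusted edgeR p under 0.05, with a median change of 0.10. The genotypes did not overlap in upstream share in 40 of the 908 (4.41%, background 5.88%), with the mutants higher in 16 (1.76%, background 1.65%) and lower in 24 (2.64%, background 4.23%). In 60 (6.61%, background 8.85%) mutants 1 to 4 lay beyond all wild types on 1 side while mutant 5 lay inside the wild-type range.

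**Figure D3:**
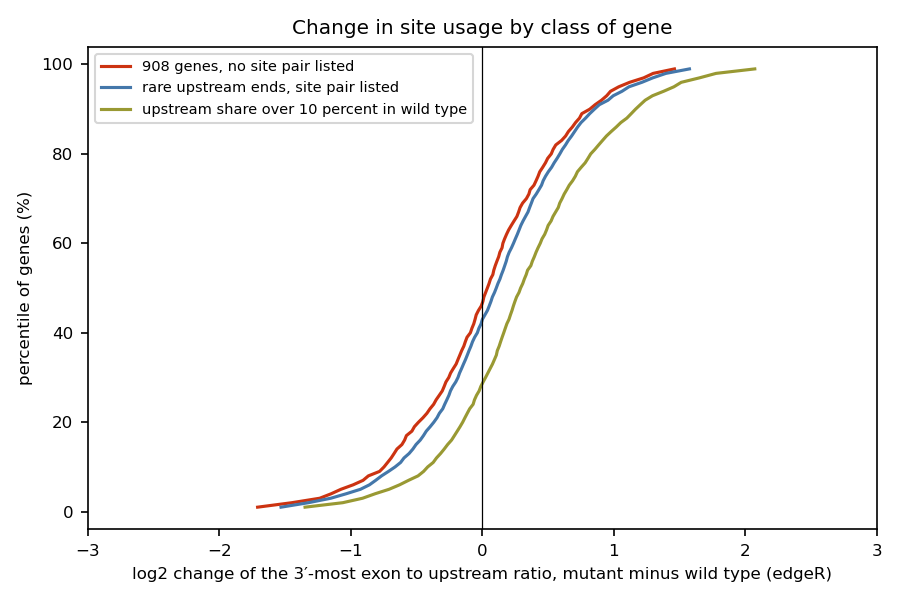
Percentiles (vertical axis, % of genes) of the edgeR log2 change of 3′-most exon reads over upstream reads, mutant minus wild type (horizontal axis), for the 908 genes (red), the 2666 genes with rare upstream ends and a listed site pair (blue), and the 2427 genes whose wild-type upstream share was over 10% (olive). The red curve crosses the 50th percentile near 0, at 0.04, the blue at 0.11 and the olive at 0.29; the wild-type share that separates the classes is part of this contrast.

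Leaving out mutant 5, edgeR called 6 of the 908 genes toward the 3′-most exon (background 2.85%) and 14 toward the upstream exon (background 1.08%) at an adjusted p under 0.05. Leaving out wild type 3, it called 1 (Zwint; background 2.0%) and 8 (background 0.667%). With mutant 5 as the only mutant, whose spread is then taken from the wild types, it called 0 (background 0.0%) in either direction. Of the 84 genes with an unadjusted p under 0.05 in all 8 libraries, mutant 5 lay inside the wild-type range in 43, namely in 23 of the 39 toward the upstream exon and in 20 of the 45 toward the 3′-most exon. No such count over the other genes is given here, so whether these counts are unusual cannot be judged.

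The genes described next are from the 10 of smallest edgeR p in each direction among genes averaging at least 50 reads, at least 5 of them upstream. Among those with relatively more upstream ends in the mutants was Cog4, a subunit of the conserved oligomeric Golgi complex. Its upstream share was 1.68%, 1.24% and 3.91% in the wild types and 13.6%, 12.8%, 8.46%, 14.0% and 3.23% in mutants 1 to 5. Mutants 1 to 4 lay above every wild type and mutant 5 lay between wild types 1 and 3. These shares rested on 20, 28 and 51 upstream reads in the wild types and on 143, 158, 125, 190 and 46 in the mutants, so that the 95% Wilson interval of wild type 3 was 2.98% to 5.10% and that of mutant 3, the lowest of mutants 1 to 4, was 7.14% to 9.99%, counting error only. The edgeR log2 change of 3′-most exon over upstream reads was -2.33 (SE 0.523) with an adjusted p of 0.282 over all 8 libraries. It was -2.68 with an edgeR adjusted p of 0.0053 without mutant 5, -2.88 with 0.0289 without wild type 3, and -0.66 with mutant 5 as the only mutant; over all settings tried the adjusted p lay between 0.0053 and 1.00.

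Dnajc27, a small GTPase with a J domain, had upstream shares of 0.398%, 0.262% and 0.587% in the wild types and 2.15%, 1.49%, 1.67%, 2.05% and 0.620% in the mutants. All 5 mutants lay above the wild types, mutant 5 only slightly and on 5 upstream reads. Il33, a nuclear alarmin cytokine of the interleukin-1 family that glia release on damage, had 1.07%, 0.182% and 0.549% in the wild types and 4.34%, 3.02%, 5.77%, 4.96% and 0.597% in the mutants. The wild-type values came from 4, 1 and 2 upstream reads and that of mutant 5 from 2, against 13 to 25 in mutants 1 to 4. The edgeR log2 changes were -1.90 (SE 0.446) for Dnajc27 and -2.72 (SE 0.688) for Il33, each with an adjusted p of 0.282, and -0.54 and -0.12 with mutant 5 as the only mutant.

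Map4k3, a kinase upstream of JNK and mTORC1 signalling, had upstream shares of 5.56%, 3.27% and 9.29% in the wild types and 14.7%, 18.2%, 15.6%, 22.3% and 10.7% in the mutants. Here all 5 mutants lay above all 3 wild types, mutant 5 lowest. Thap3, of the THAP zinc finger family, had 4.61%, 3.08% and 8.52% and then 13.3%, 13.02%, 10.8%, 14.6% and 7.63%. In Thap3 mutant 5 lay below wild type 3. Their edgeR log2 changes were -1.59 (SE 0.422) and -1.31 (SE 0.355), each with an adjusted p of 0.282, and -0.89 and -0.64 with mutant 5 as the only mutant, the same direction at a smaller size.

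Olfml2a, an olfactomedin-like matrix protein, had upstream shares of 2.99%, 1.79% and 5.71% in the wild types and 16.1%, 9.52%, 14.3%, 12.7% and 7.0% in the mutants, without overlap, on 2 to 17 upstream reads per library. Myh3, the embryonic skeletal muscle myosin heavy chain, had 17.9%, 1.12% and 9.43% in the wild types and 41.4%, 36.4%, 28.6%, 36.6% and 12.2% in the mutants, from a total of only 39 to 93 reads per library. The wild-type spread of Myh3 was the widest of these genes. Zcchc7, a zinc knuckle protein of a nuclear polyadenylation complex, had 0.739% ± 0.149 (SD, n = 3) and 1.73% ± 0.649 (SD, n = 5). Wrnip1, an ATPase that binds the Werner helicase, had 7.09% ± 3.03 (SD, n = 3) and 14.5% ± 3.79 (SD, n = 5), and Tmem128 had 8.11% ± 4.80 (SD, n = 3) and 17.8% ± 4.66 (SD, n = 5). Mutant 5 had the lowest share of all mutants in Olfml2a, Myh3, Zcchc7, Wrnip1 and Tmem128.

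Pcgf2, a Polycomb group protein and 1 of the 8 genes with the most upstream reads, had more upstream reads than the genes of this direction described above. Its upstream share was 9.14%, 3.67% and 11.7% in the wild types, on 75, 92 and 186 upstream reads, and 16.7%, 16.0%, 15.0%, 19.8% and 7.89% in the mutants, on 218, 251, 294, 352 and 142. Mutants 1 to 4 lay above the wild types and mutant 5 inside their range. The edgeR log2 change was -1.09 (SE 0.419) with an adjusted p of 0.301, and -0.09 with mutant 5 as the only mutant.

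Toward the 3′-most exon, D17H6S56E-5 had upstream shares of 3.57%, 3.19% and 5.78% in the wild types and 1.75%, 1.40%, 1.22%, 1.13% and 0.939% in the mutants. All mutants lay below all wild types, mutant 5 lowest, on 2 to 17 upstream reads per library. Its edgeR log2 change was 1.73 (SE 0.405), adjusted p 0.282, and 2.14 with mutant 5 as the only mutant. Atg16l1, which directs LC3 lipidation in autophagy, had 1.64%, 0.453% and 0.701% in the wild types and 0.0910%, 0.313%, 0.142%, 0.126% and 0.435% in the mutants. The groups did not overlap, but mutant 5 and wild type 2 were close, on 5 and 6 upstream reads. Slc24a3, a potassium-dependent sodium and calcium exchanger, had 0.329%, 0.243% and 0.173% and then 0.142%, 0.0880%, 0.0504%, 0.105% and 0.0803%, also without overlap.

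Gramd1b, a sterol carrier at contacts between endoplasmic reticulum and plasma membrane, had 1.12% ± 0.721 (SD, n = 3) and 0.408% ± 0.102 (SD, n = 5), with wild type 1 at 1.95% setting the wild-type spread. Pitpnm3, named for the family of membrane-associated phosphatidylinositol transfer proteins, had 7.69% ± 2.91 (SD, n = 3) and 2.85% ± 1.20 (SD, n = 5).

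Mgat5b, a brain N-acetylglucosaminyltransferase, had 10.4%, 3.58% and 2.41% in the wild types and 1.34%, 1.35%, 1.71%, 2.31% and 2.54% in the mutants, so that mutant 5 lay above wild type 3. Rabep2, a rabaptin of early endosomes, had 6.07% ± 0.602 (SD, n = 3) and 2.43% ± 1.16 (SD, n = 5). Mapk3, the kinase ERK1, had 0.114% ± 0.0548 (SD, n = 3) and 0.0539% ± 0.0174 (SD, n = 5) on 5 to 21 upstream reads among a mean of 13252. Zwint, a kinetochore protein that is abundant in neurons, had 8.07%, 9.89% and 3.70% in the wild types and 3.13%, 2.72%, 3.56%, 2.84% and 5.62% in the mutants, with mutant 5 between the wild types. Its upstream reads were nearly level across the libraries, 107 to 144, while its total level on the log2 CPM scale was 7.74, 6.86 and 8.45 in the wild types and 8.81, 8.79, 8.66, 8.85 and 7.81 in the mutants. In Zwint the edgeR log2 change in usage was 1.02 (SE 0.357) with an adjusted p of 0.297, and 0.28 with mutant 5 as the only mutant.

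**Figure D4:**
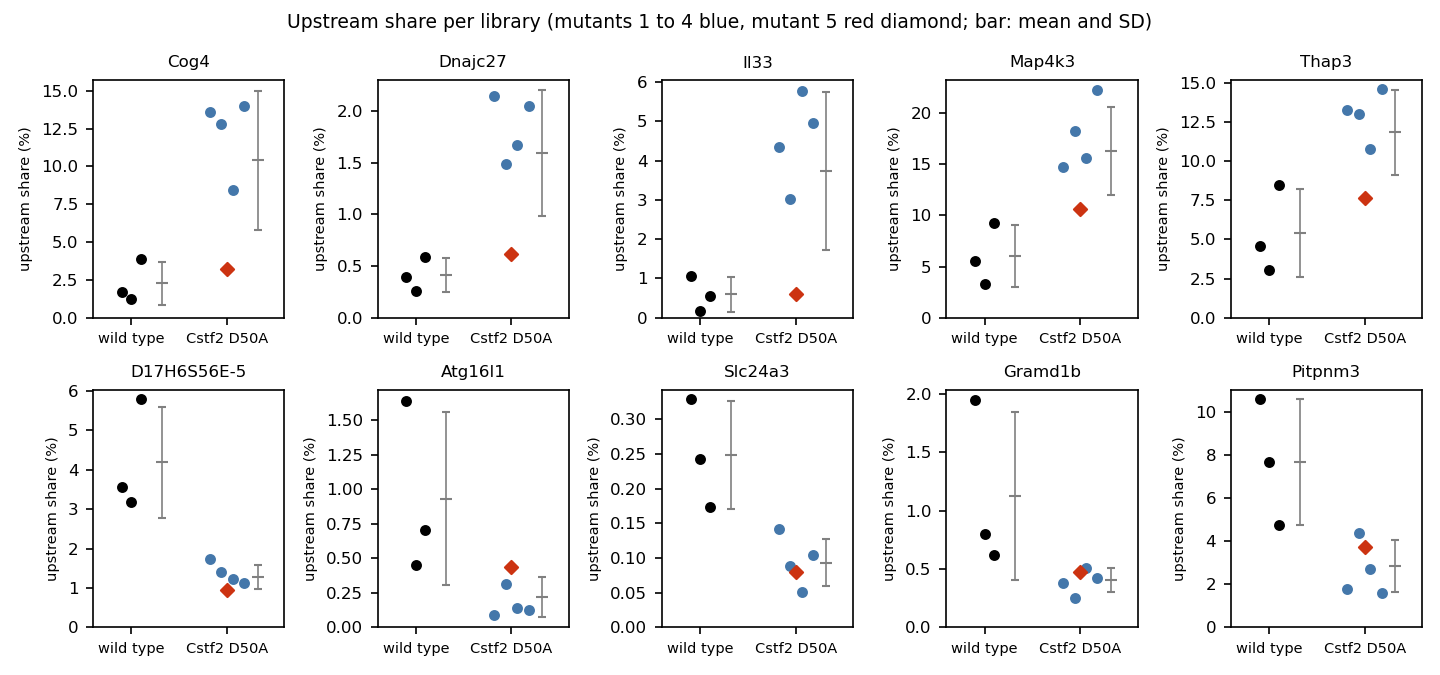
Upstream share (%, vertical axes) per library of the 5 genes of smallest edgeR p toward the upstream exon (Cog4, Dnajc27, Il33, Map4k3, Thap3) and the 5 toward the 3′-most exon (D17H6S56E-5, Atg16l1, Slc24a3, Gramd1b, Pitpnm3), wild type black, mutants 1 to 4 blue, mutant 5 red diamond, with the mean and SD of each genotype. In the first 5 mutant 5 is the lowest mutant and lies at or near the wild types, while in the other 5 it lies among the other mutants or at their edge.

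The level of the genes, as the sum of both sites, was compared as the measure that the choice of genes did not use by genotype. No gene passed. edgeR's quasi-likelihood test with TMM scaling and Benjamini-Hochberg adjustment over 6001 genes called 0 of the 908 (background 0.0%), as did DESeq2 and limma-voom (0 of the 908, background 0.0% each). The smallest edgeR adjusted p was 0.327, and 137 of the 908 (15.1%, background 15.1%) had an unadjusted p under 0.05, as did 159 by DESeq2 (background 17.0%). Of the 137, 45 were at higher levels in the mutants (4.96%, background 7.6%) and 92 at lower levels (10.1%, background 7.47%). The median log2 change in level was -0.05 over the 908, with 518 below 0 (57.0%, background 49.4%), and 0.01 over all 6001.

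The genotypes did not overlap in level in 39 genes (4.3%, background 4.78%), 16 with the mutants higher (1.76%, background 2.28%) and 23 lower (2.53%, background 2.5%). Of the 92 genes at lower levels before adjustment, wild type 1 was the highest of all 8 libraries in 79, against 230 of all 908, and mutant 5 lay inside the wild-type range in 69. Mutant 5 lay inside that range in 32 of the 45 at higher levels. For mutant 5, no count over the other genes is given here to compare these with. Without mutant 5 edgeR called 2 higher (background 0.333%) and 6 lower (background 0.717%), and with mutant 5 as the only mutant 0 (background 0.0%) in either direction.

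The 2 genes that edgeR called higher without mutant 5 were Dcc, the netrin receptor of growing axons, and Dlk2, a delta-like protein related to Notch ligands. Dcc was at log2 CPM of 3.67, 3.30 and 3.99 in the wild types and 4.96, 4.80, 4.40, 4.80 and 3.63 in the mutants, and Dlk2 at 3.15, 3.27 and 3.87 and then 4.58, 4.49, 4.23, 4.56 and 3.57. In both, mutants 1 to 4 lay above all wild types and mutant 5 inside their range, as in the summed striatum markers; the part of these in the result was not tested. The edgeR log2 change of Dcc was 0.92 (SE 0.292, adjusted p 0.327), 1.09 without mutant 5 (adjusted p 0.0389, between that and 1.00 over all settings), and -0.04, the other direction, with mutant 5 as the only mutant. That of Dlk2 was 0.88 (SE 0.262, adjusted p 0.327), 1.02 without mutant 5 (adjusted p 0.0465, between that and 1.00 over all settings) and 0.11 with mutant 5 as the only mutant.

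Of the 6 genes called lower without mutant 5, Zbtb46 and Gipc2 belong to the 10 of smallest p in this direction, Homer3 to the fixed gene lists, and Bcl2l15, Rps6ka1 and Klhl33 are named after their values were seen. Homer3, a postsynaptic scaffold that binds metabotropic glutamate receptors and is abundant in Purkinje cells, was at log2 CPM of 8.43, 8.69 and 8.38 in the wild types, 6.43, 6.49, 6.70 and 6.45 in mutants 1 to 4 and 8.62 in mutant 5. Zbtb46, a zinc finger transcription factor known from dendritic cells and endothelium, was at 6.76, 6.75 and 6.61, then 5.69, 5.58, 5.61 and 5.64, and 6.69 in mutant 5. In both, mutants 1 to 4 lay below the wild types and mutant 5 inside their range. Homer3 is itself in the list of Purkinje cell markers. The edgeR log2 changes without mutant 5 and with it as the only mutant were -1.98 (adjusted p 5.6e-05) and 0.12 for Homer3, -1.08 (adjusted p 0.000702) and -0.02 for Zbtb46, and -3.32 (adjusted p 0.000122) and -0.45 for Bcl2l15. For Rps6ka1, a ribosomal S6 kinase, they were -1.06 (adjusted p 0.00862) and 0.14. Over all 8 libraries these 4 genes each had an edgeR adjusted p of 0.327, and with mutant 5 as the only mutant of 1.00.

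Among the 10 genes of smallest edgeR p at higher levels, Foxo6, a forkhead transcription factor of the brain, was at log2 CPM of 6.42, 6.81 and 6.89 in the wild types and 7.11, 7.26, 7.80, 7.27 and 7.19 in the mutants. All 5 mutants lay above all wild types, mutant 5 among them, and the edgeR log2 change was 0.63 (SE 0.181), adjusted p 0.327, and 0.48 with mutant 5 as the only mutant. Igsf9, an immunoglobulin superfamily protein of dendrites, was at 3.53, 4.37 and 4.42 and then 5.02, 5.24, 5.03, 5.11 and 4.48, with mutant 5 just above the wild types. Entpd3, an ectonucleotidase, was at 4.26 ± 0.348 (SD, n = 3) and 4.81 ± 0.115 (SD, n = 5), without overlap. The largest changes of this group were at low and variable levels, as in Shd, an SH2 adaptor, at 1.14 to 3.39 in the wild types and 3.32 to 4.80 in the mutants, and in Wdr34, a chain of ciliary dynein, at 3.41 ± 0.850 (SD, n = 3) and 4.81 ± 0.589 (SD, n = 5). Ncoa5, Rap1gds1 and Hectd4 had edgeR log2 changes of 0.61, 0.82 and 0.81.

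Among the 10 at lower levels, Bloc1s1, shared by the BLOC-1 and BORC lysosomal complexes, was at log2 CPM of 8.28, 8.01 and 7.74 in the wild types and 7.23, 7.33, 7.59, 7.40 and 7.70 in the mutants. The groups did not overlap, mutant 5 lying just below wild type 3, and the edgeR log2 change was -0.57 (SE 0.153), adjusted p 0.327. Atp6v0e, a subunit of the vacuolar proton pump, was at 7.67, 7.29 and 7.17 and then 6.81, 6.91, 6.98, 6.83 and 7.09, with an edgeR log2 change of -0.47. Cox4i1, a subunit of cytochrome c oxidase, was at 10.65, 10.02 and 9.66 and then 9.26, 9.43, 9.64, 9.28 and 9.76, so mutant 5 lay above wild type 3. Wild type 1 was the highest library in each of these. Pard6a, a cell polarity protein, was at 8.33 ± 0.345 (SD, n = 3) and 7.65 ± 0.314 (SD, n = 5). Gm9843, Pigx, Rpf1 and C1galt1c1 had edgeR log2 changes of -0.66, -0.51, -0.59 and -0.54.

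**Figure D5:**
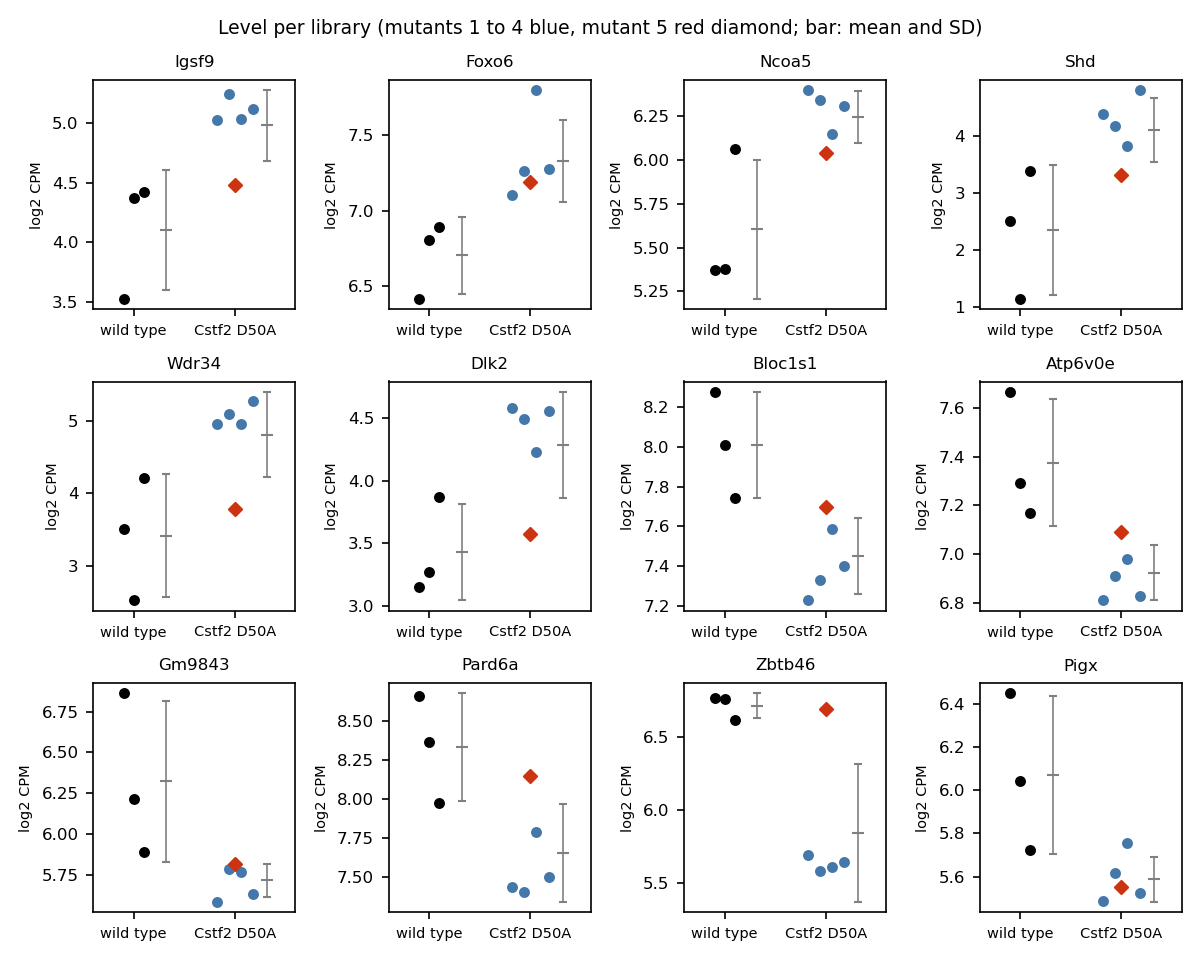
Level (log2 CPM of both sites together, vertical axes) per library of the 6 genes of smallest edgeR p at higher levels (Igsf9, Foxo6, Ncoa5, Shd, Wdr34, Dlk2) and the 6 at lower levels in the mutants (Bloc1s1, Atp6v0e, Gm9843, Pard6a, Zbtb46, Pigx), drawn as in the plot of upstream shares. In Zbtb46 mutant 5, at 6.69, lies with the wild types, and in Foxo6 the mutants lie between 7.11 and 7.80 and the wild types between 6.42 and 6.89.

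In 23 genes (2.53%, background 3.6%) the unadjusted edgeR p was under 0.05 both for usage and for level. Across the 908 genes Spearman's rho of the changes in usage and in level was 0.324, a description over genes measured in the same libraries. The reads of both sites enter both measures. More 3′-most exon reads, which are most of the level in these genes, raise both.

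Of 27 lists of functional genes and cell type markers and 12 name families, 15 lists and 6 families had 5 or more of the 908 genes. No list had a gene with an edgeR adjusted p under 0.05 in usage or level over all 8 libraries. Without mutant 5 the called genes among the list and family members were Map4k3, Dnajc27, Rabl2, Fa2h and Slc7a8 in usage and Homer3, Dcc and Rps6ka1 in level. Median usage changes ran from -0.30 to 0.50 over these 15 lists and from -0.23 to 0.70 over these 6 families, against 0.04 over the 908.

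The cytosolic ribosome and translation factors had 13 of the 908 genes, all with log2 changes in level below 0, a median of -0.53, and an unadjusted edgeR p under 0.05 in 7. Over all genes tested 49.4% were below 0 and 7.47% were lower at such a p. Rps14, a protein of the small subunit, was at log2 CPM of 13.52, 12.31 and 11.88 in the wild types and 11.58, 11.78, 12.07, 11.59 and 12.10 in the mutants. Wild type 1 stood far above the other libraries and wild type 3 was within the mutant range. The median over the 13 genes of the log2 level relative to the wild-type mean was 0.59, -0.06 and -0.44 in the wild types and -0.65, -0.52, -0.33, -0.59 and -0.30 in the mutants. The spread within the wild types was therefore larger than the distance of wild type 3 from the mutants.

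The respiratory chain and ATP synthase had 12 genes, 11 of them with log2 changes in level below 0, a median of -0.37, and an unadjusted edgeR p under 0.05 in 7, against the same 49.4% and 7.47% of all genes tested. Uqcrh, of complex III, was at log2 CPM of 12.64, 11.86 and 11.26 in the wild types and 11.13, 11.23, 11.47, 11.06 and 11.73 in the mutants. Ndufa13, of complex I, was at 11.01, 10.51 and 10.08 and then 9.69, 9.77, 10.17, 9.82 and 10.36. In both, wild type 1 was the highest library and mutants 3 and 5 lay above wild type 3. In usage the median over the 12 genes was -0.22, with 1 gene, Cox8a, toward the 3′-most exon at an unadjusted p under 0.05.

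The 12 genes of mitochondrial translation and metabolism had a median change in level of -0.20, and the 10 of the proteasome and ubiquitin conjugation -0.29. Psmd13, a lid subunit of the proteasome, had upstream shares of 0.0786%, 0.152% and 0.568% in the wild types and 1.20%, 0.872%, 0.355%, 0.935% and 0.163% in the mutants. Mutants 1, 2 and 4 lay above the wild types, mutants 3 and 5 among them. The 10 chaperones had medians of -0.13 in usage and -0.19 in level, with Pfdn6, Dnajc27 and Pdia4 toward the upstream exon at an unadjusted edgeR p under 0.05. Pfdn6, a prefoldin subunit, was at 1.67%, 1.88% and 1.18% in the wild types and 2.35%, 2.64%, 2.85%, 2.30% and 2.04% in the mutants, all above the wild types.

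Of the synaptic genes tested, this class held 5 of 49 of the glutamatergic synapse and 6 of 67 of the vesicle list, against 908 of 6001 genes. In usage 3 and 4 of these had log2 changes above 0 (53.3% of the 908). In level 4 and 5 did (43.0% of the 908). The 5 genes of the glutamatergic synapse had a median usage change of 0.28 and a median change in level of 0.14. Slc1a3, the glial glutamate transporter, was at log2 CPM of 7.94 ± 0.307 (SD, n = 3) and 7.97 ± 0.226 (SD, n = 5). From the list of GABA neurons, Reln, the matrix protein reelin, had upstream shares of 1.61% ± 0.810 (SD, n = 3) and 0.673% ± 0.435 (SD, n = 5). The 6 vesicle genes had medians of 0.27 in usage and 0.25 in level, with Sv2c, a vesicle glycoprotein, at log2 CPM of 6.60, 6.78 and 7.39 and then 7.46, 7.31, 7.59, 7.58 and 7.45. Wild type 3 lay among the mutants in Sv2c, while wild types 1 and 2 lay below. The 10 ion channel genes had medians of 0.34 in usage and 0.04 in level, with Kcna6 at 9.70 ± 0.214 (SD, n = 3) and 9.65 ± 0.222 (SD, n = 5), and the 8 axon guidance and adhesion genes medians of 0.16 and 0.23.

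The cleavage and polyadenylation machinery, of which 29 genes were in the table, had 4 among the 908. Cpsf3, the endonuclease, had upstream shares of 0.238% ± 0.11 (SD, n = 3) and 0.319% ± 0.138 (SD, n = 5), and Ctr9, of the PAF complex, 0.123% ± 0.0433 (SD, n = 3) and 0.145% ± 0.0644 (SD, n = 5). Cstf1, the CSTF subunit that contacts the RNA polymerase II tail, had 3.32%, 2.51% and 1.34% and then 0.830%, 0.345%, 2.43%, 2.94% and 1.34%. In all 3 the genotypes overlapped. Ints4, of the Integrator complex and named after its values were seen, had 4.03%, 0.323% and 5.77% in the wild types and 7.98%, 8.29%, 8.05%, 11.1% and 4.17% in the mutants. Mutants 1 to 4 lay above the wild types and mutant 5 inside their range. The edgeR log2 change was -1.50 with an unadjusted p under 0.05, while the adjusted p was not under 0.05. The 4 genes had edgeR log2 changes in level between -0.25 (Ctr9) and 0.08 (Ints4), none with an unadjusted p under 0.05. The 7 genes of nuclear mRNA processing had a median usage change of 0.50, among them Hnrnpl at 0.284% ± 0.191 (SD, n = 3) and 0.165% ± 0.0611 (SD, n = 5), and the splicing factor U2af1 at 4.79% ± 2.19 (SD, n = 3) and 2.83% ± 1.18 (SD, n = 5).

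Several cell type markers were in this class. Mag and Fa2h were among the genes of the oligodendrocyte list. Fa2h, the fatty acid hydroxylase of myelin lipids, had upstream shares of 3.17%, 4.31% and 1.54% in the wild types and 0.484%, 0.344%, 0.588%, 0.809% and 3.45% in the mutants, with mutant 5 inside the wild-type range. Its edgeR log2 usage change was 1.69 (SE 0.635, adjusted p 0.301), 2.32 without mutant 5 (adjusted p 0.0298), with an adjusted p of 0.0922 without wild type 3, and -0.30 (adjusted p 1.00), the other direction, with mutant 5 as the only mutant. The granule cell list had Unc13c, a regulator of vesicle priming, at log2 CPM of 7.74, 7.23 and 6.97 in the wild types and 6.56, 6.62, 6.74, 6.34 and 7.17 in the mutants. The Purkinje list had Homer3, Sv2c and Pcp4, the last a calmodulin-binding peptide at 9.42, 8.90 and 8.61 and then 8.50, 8.52, 8.36, 8.52 and 8.71. The 7 astrocyte genes had medians of -0.30 in usage and -0.07 in level, with Clu, the secreted chaperone clusterin, at 10.03 ± 0.336 (SD, n = 3) and 9.84 ± 0.221 (SD, n = 5). The microglial protease Ctss was at 7.11 ± 0.262 (SD, n = 3) and 6.9996 ± 0.0776 (SD, n = 5).

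The larger general families lay near the 908 as a whole. The 21 solute carriers had medians of 0.12 in usage and 0.00 in level, the 15 Zfp genes 0.02 and -0.06, the 14 Tmem genes 0.14 and -0.10, the 14 endosome and lysosome genes 0.08 and -0.07, and the 13 chromatin genes 0.09 and -0.06. Slc44a1, a choline transporter, had upstream shares of 5.93%, 4.11% and 4.91% in the wild types and 8.996%, 7.89%, 6.31%, 6.56% and 5.27% in the mutants, with mutant 5 inside the wild-type range. The 7 genes whose names begin with Rab had the highest median in usage of the 6 families with 5 or more of the 908, 0.70, on few upstream reads. Rab15 had 0.142%, 0.183% and 0.106% and then 0.104%, 0.0872%, 0.0495%, 0.0823% and 0.0312%, and Rab5b, of early endosomes, 0.113% ± 0.0239 (SD, n = 3) and 0.0678% ± 0.0392 (SD, n = 5), on means of 3.88 and 6 upstream reads per library.

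The rule used neither gene length nor gene type. Matching symbols to the RefSeq annotation of GRCm38.p6, which served only for lengths and gene types because the files use mm9, found 907 of the 908 genes, of which 904 were protein coding. Their median gene length was 26192 bases, with quartiles of 12230 and 65211, against 39694 bases in the 2657 matched genes with rare upstream ends and a listed pair and 41827 bases in all 6107 matched genes. The genes without a listed pair but with more upstream ends, 1037 matched, had a median of 49117 bases. The 908 genes were thus the shortest of these classes by their median, a description over genes that are not independent replicates and whose reads and listing the rule had already selected.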

How the data were processed

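Polyadenylated 3′ ends of total brain RNA were counted in 3 wild-type and 5 Cstf2 D50A mice. Per the file headers and the series text, the deposited values are raw read counts per library and site, 1 upstream-exon and 1 3′-most-exon site per gene. STAR 2.5, HTSeq 0.6.0, FastQC 0.11.3 and the build mm9 are listed, without roles, per the submitters' processing notes; how sites were picked and whether strand was used are not given in the sources used here. Columns were assigned to samples by the library codes in the titles, and 0 value columns were left unassigned.

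Genes with at least 10 reads in all at each site and a mean of 20 or more were tested, 6001 of 6147 and all 908 of the class. Site usage was the interaction of site and genotype with the library as a block, and level was the total over the 2 sites after TMM scaling, both by edgeR 4.0.16 in R 4.3.3 (glmQLFit, glmQLFTest, Benjamini-Hochberg over all genes, threshold 0.05). DESeq2 1.42.0, limma-voom (limma 3.58.1), other filters and scalings, and leaving out each library were alternatives, and leaving out mutants 1 to 4 was added after seeing the data. The usage and level scripts were tested on simulated counts.

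Genes named were the 10 of smallest edgeR p per direction, those with the most reads or most upstream reads, 4 on each side of the limit, and the 3 with the most reads in each list or family; others are named as chosen after their values were seen, and a few genes that this rule takes in are not reported here. The class and the lists were chosen with earlier results of these data known. Wilson intervals cover counting error only, since reads carry no molecular identifiers. Replicates are separate animals per the labels. Site positions and sequences were not used here.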

Additional observations from a re-analysis of the deposited data

Results flagged for a closer look

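In 43 groups of 5 mutant values tested for a single library far from the rest, 6 were found, 4 of them mutant 5; chance marks about 1 in 20 groups. Mutant 5 stood apart in the upstream share of Zwint, at 5.62% against 2.72% to 3.56% in the other mutants. It also stood apart in the log2 CPM of Igsf9, at 4.48 against 5.02 to 5.24, of Wdr34, at 3.78 against 4.96 to 5.27, and of Zbtb46, at 6.69 against 5.58 to 5.69. In each case mutant 5 was the library nearest to the wild types, and it was also the mutant with cerebellar markers at the wild-type level; the part of these in each other was not tested.

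Mutant 3 had the highest level of Foxo6, 7.80 against 7.11 to 7.27, and mutant 2 the highest of C1galt1c1, 5.33 against 4.998 to 5.08. Over all 908 genes the same test marked 58 in upstream share (6.39%), 26 of them through mutant 5, and 60 in level (6.61%), 46 of them through mutant 5. Both percentages were near the chance rate stated above. Counts of this test over the other genes are not given here. Whether the part of mutant 5 is particular to the 908 genes therefore cannot be judged.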

How the results depend on the processing

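Over all 8 libraries edgeR called no gene in usage or level, and in usage DESeq2 called 0.0667% of the genes tested toward the 3′-most exon and 0.0167% toward the upstream exon, none of them among the 908. Leaving out each library in turn, edgeR calls in usage ranged from 0 to 2.85% of all genes tested toward the 3′-most exon and from 0 to 1.08% toward the upstream exon, and from 0 to 6 and from 0 to 14 genes among the 908; the highest counts came without mutant 5. In level they ranged from 0 to 0.333% of all genes tested higher and from 0 to 0.717% lower, and from 0 to 2 and from 0 to 6 genes among the 908, with all calls arising without mutant 5. With mutants 1 to 4 left out, the median change in level over the 908 was 0.054 in place of -0.046, and the change of Dcc was -0.045 in place of 0.92; the cause was not tested. The median usage change over the 908 stayed between -0.02 and 0.08 over the fits tried, and was 0.10 over the 942 genes chosen by the share in all 8 libraries. Of the settings for single named genes, 223 in usage and 275 in level kept direction and side of the threshold, and 17 and 4 passed it. No paired analysis was possible because the replicate numbers only follow the order of deposit and pair no animals. Depth limits the class: 288 genes had a mean under 5 upstream reads per library, and in 129 at least 1 library had none.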

Other observations

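A pair of genes linked to X-chromosomal intellectual disability were in the class. Taf1, the largest subunit of the transcription factor TFIID, was at log2 CPM of 7.14, 6.69 and 7.74 in the wild types and 8.01, 7.88, 7.70, 7.99 and 7.30 in the mutants, with mutant 3 and mutant 5 inside the wild-type range. Tspan7 was at 11.37, 11.39 and 11.80 and then 12.05, 11.98, 11.90, 12.06 and 11.46, with mutant 5 inside the wild-type range. Neurofilament medium chain, Nefm, was at 7.49, 8.33 and 8.86 in the wild types and between 8.40 and 9.22 in the mutants, its genotypes overlapping.

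The mitochondrial RNA helicase Dhx30 was close to constant in level among the mutants, at 7.97 ± 0.0267 (SD, n = 5) on the log2 CPM scale, against 7.57 ± 0.335 (SD, n = 3) in the wild types, where wild type 3, at 7.92, lay near the mutants. Trim11, a ubiquitin ligase, had upstream shares of 6.4% to 8.26% in the wild types and 3.08%, 3.96%, 2.56%, 7.70% and 6.14% in the mutants, so that mutants 4 and 5 lay nearest to the wild types.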
